A study of Mus musculus with 8 samples.

Results

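The wild-type mouse retina was described here from 3 of the 8 arrays of the series, those titled as wild type and numbered 1, 2 and 3. These arrays were chosen by their genotype label, and 18193 genes measured on them were ranked by level. The tissue was neural retina of BALB/c AJ mice (strain as labelled), taken at postnatal day 40 and dissected free of the retinal pigment epithelium, or RPE. The mice lived in 12 h of light and 12 h of dark. The other arrays came from retinas of the same strain and age and served only for comparison: 2 carry the label heterozygous Nxnl1 null and 3 the label homozygous Nxnl1 null. Nxnl1 encodes rod-derived cone viability factor. Whether each array held the retinas of 1 mouse or of several is not given in the sources used here, so the spread between arrays may be partly technical.

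The neural retina is a layered tissue in which rods far outnumber every other neuron of the mouse retina. A rod captures light in a stack of membrane discs, its outer segment, and passes the signal through the G protein transducin to a phosphodiesterase that closes cation channels. Bipolar, horizontal, amacrine and ganglion cells relay the signal, Müller glia span the layers, and lens, RPE, choroid and the muscles that move the eye lie close to the tissue that is dissected.

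Each level is the deposited log2 RMA value (RMA is a method that corrects, equalises and summarises Affymetrix probe signals), and 1 unit is a factor of 2. A gene is represented by the probe set with the highest wild-type mean. Probe sets bind with different strength, so a rank orders brightness and is not a count of molecules. Levels of the 18193 genes ran from 2.68 to 14.46, with a median of 7.16 and quartiles of 4.92 and 8.89. Rank 100 lay at 12.58. As a guide to the bottom of the scale, 48 genes whose transcripts belong to liver, pancreas, testis, oocyte or kidney had a median of 4.42 and a 95th percentile of 6.26, and 10852 genes (59.6%) lay above that percentile.

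The arrays were close to each other over all probe sets, with correlations of 0.992 between arrays 1 and 2, 0.992 between arrays 2 and 3, and 0.982 between arrays 1 and 3. Their medians were 6.13, 6.18 and 6.21. Array 1 stood somewhat apart from arrays 2 and 3 in the actin control, which RNA quality can affect but which does not measure it alone. The 5′ control probe set for actin read 1.81 below the 3′ one there (a difference of -1.81), against -1.04 on array 2 and -0.80 on array 3, and the other 5 arrays lay between -1.74 and -0.69. A lower value means less signal from the 5′ end of a long transcript. Nxnl1 read 9.22, 8.87 and 8.65 on wild-type arrays 1, 2 and 3. The array labelled heterozygous 2 read 6.75 and the array labelled homozygous 2 read 8.76, so these arrays went against their labels and the comparison group is called the other 5 arrays.

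The 3 genes given as marks of the tissue were all near the top. Sag, which encodes the rod arrestin that quenches activated visual pigment, read 14.45, 14.45 and 14.48 and ranked 1 of 18193. Gnat1, the alpha subunit of rod transducin, read 14.20, 14.25 and 14.24 and ranked 2. Glul, the glutamine synthetase of Müller glia, read 13.12, 13.19 and 13.18 and ranked 32. The step of 0.23 from Sag to Gnat1 and the step of 0.45 from Gnat1 to rank 3 were larger than the SD of either neighbour. Lower down the order was mostly not resolved: 27 of the 30 steps among the leading genes were smaller than the larger SD of the genes on either side.

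Rod and other photoreceptor genes filled much of the top of the list. Of 75 genes measured from 5 photoreceptor lists with 83 entries, 22 were in the top 100, 16 in the top 30 and 7 in the top 10, and 49 lay in the top 5% of all genes. In bulk tissue a high level cannot be told apart into many cells of a type and much RNA per cell, and this holds for every cell type below.

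**Figure D1:**
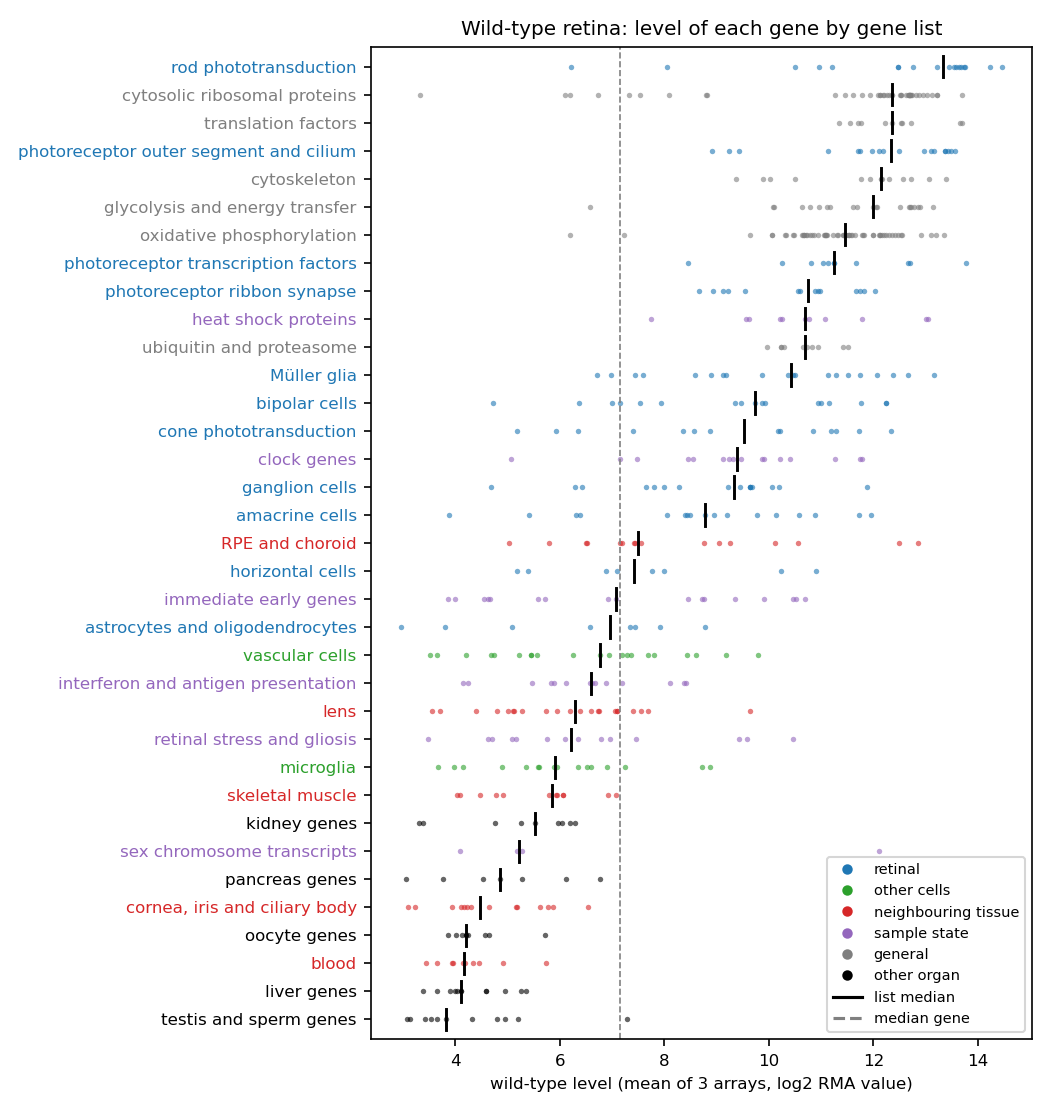
Wild-type level (x axis, mean of 3 arrays, log2 RMA value) of every measured gene in 35 gene lists (y axis), with 1 point per gene, the list median as a black bar and the median of all 18193 genes as a dashed line at 7.16. Rod phototransduction has the highest median, 13.34, and testis, liver and blood lists sit at the bottom, near 4.

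The 250 bases before the start and the 50 after it were read for these genes, since the homeodomain factor CRX, which drives photoreceptor genes, is known to bind a short core, TAATCC, which on the opposite strand reads GGATTA. The core, on either strand, was in 2320 of 32851 mouse RefSeq promoters (7.06%; GRCm38.p6). It was in 6 of 12 promoters of the rod phototransduction list, in 7 of 20 of the outer segment and cilium list (35.0%) and in 22 of 74 of all 5 photoreceptor lists (29.7%). Of those 5 lists, the genes in the top 100 had it in 7 of 21 promoters (33.3%). Ribosomal protein genes, which were also bright, had it in 2 of 45 (4.44%), Müller glia genes in 1 of 17 (5.88%), and RPE and choroid genes in 6 of 14 (42.9%). A match is a description of letters, not of binding. The 120 bases before the start are shown for the photoreceptor genes of the top 100 whose core lies in that stretch, 5′ to 3′ on the gene's own strand, with the core in capitals.
Sag, chr1:87803560-87803679, plus strand: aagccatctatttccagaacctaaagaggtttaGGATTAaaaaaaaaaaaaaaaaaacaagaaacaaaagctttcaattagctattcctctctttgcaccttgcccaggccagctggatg
Guca1a, chr17:47400607-47400726, minus strand: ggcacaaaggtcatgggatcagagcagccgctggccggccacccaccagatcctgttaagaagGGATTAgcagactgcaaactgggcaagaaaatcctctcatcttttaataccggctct
Unc119, chr11:78345464-78345583, plus strand: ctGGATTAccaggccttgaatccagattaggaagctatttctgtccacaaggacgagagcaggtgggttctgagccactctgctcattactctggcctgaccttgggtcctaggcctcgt
Rbp3, chr14:33953883-33954002, plus strand: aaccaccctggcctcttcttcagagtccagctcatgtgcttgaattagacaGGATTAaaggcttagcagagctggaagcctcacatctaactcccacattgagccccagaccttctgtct
Gngt1, chr6:3993888-3994007, plus strand: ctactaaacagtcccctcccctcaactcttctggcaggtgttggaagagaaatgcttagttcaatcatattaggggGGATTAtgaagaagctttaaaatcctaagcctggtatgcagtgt
Aipl1, chr11:72037510-72037629, minus strand: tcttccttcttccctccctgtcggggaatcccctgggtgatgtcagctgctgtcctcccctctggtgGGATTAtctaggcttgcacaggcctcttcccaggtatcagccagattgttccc
Crx, chr7:15879956-15880075, minus strand: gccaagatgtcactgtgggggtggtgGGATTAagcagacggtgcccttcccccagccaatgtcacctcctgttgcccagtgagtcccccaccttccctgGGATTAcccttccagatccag
In Sag the core begins 87 bases before the start, in Guca1a 57, in Rbp3 69, in Gngt1 44 and in Aipl1 53. Unc119 has it at 118 bases, near the far end of the stretch. Crx, the gene of the factor itself, has 2 cores, at 94 and 21 bases.

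Rod phototransduction was the brightest of the 35 lists. Its 18 measured genes of 20 had a median of 13.34, which is at the 99.9th percentile of all genes, and 11 were in the top 100. The transducin beta subunit Gnb1 read 13.67, 13.76 and 13.85 (rank 4), and the gamma subunit Gngt1 read 13.32, 13.16 and 13.20 (rank 26). Of the phosphodiesterase, the inhibitory subunit Pde6g read 13.73, 13.78 and 13.72 (rank 5) and the catalytic subunit Pde6b read 13.50, 13.72 and 13.72 (rank 10). The other catalytic subunit, Pde6a, was dimmer and less even, at 10.59, 11.10 and 11.16 (rank 826). All of these except Gngt1 were at their lowest, or within 0.02 of it, on array 1.

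The calcium sensors that reset the cascade were bright and even. Guca1a, which activates guanylate cyclase when calcium drops, read 13.67, 13.66 and 13.67 (rank 8), a range of 0.01. Guca1b, a second activator, read 13.44, 13.51 and 13.41 (rank 17), and Rcvrn, which holds back rhodopsin kinase, read 13.54, 13.56 and 13.52 (rank 15). Phosducin, Pdc, which binds transducin beta and gamma, read 13.40, 13.66 and 13.66 (rank 13). The channel and exchanger genes followed, with Slc24a1 at 12.76 (rank 69) and Cnga1 at 12.46 (rank 127) as means of 3 arrays.

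A few rod genes did not share this brightness. Grk1, rhodopsin kinase, read 7.53, 7.96 and 8.64 (rank 6929), and Gucy2e, the guanylate cyclase that Guca1a activates, read 5.39, 6.08 and 7.17 (rank 10942). Rgs9, which speeds the shut-off of transducin, read 10.75, 11.01 and 9.74 (rank 1284). These 3 were also the only members of the list with a range of at least 1 between arrays. Grk1 and Gucy2e were lowest on array 1 and highest on array 3, as the actin 5′ to 3′ difference was, and the part of RNA quality in this was not tested. Grk1 and Gucy2e each had only 1 probe set in the ranking, so neither level could be checked against another. The Gucy2e mean, 6.21, lay just below the guide level of 6.26. Rgs9 rests on its brightest probe set, and its second probe set read 7.87, 7.56 and 7.71, a range of 0.30.

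**Figure D2:**
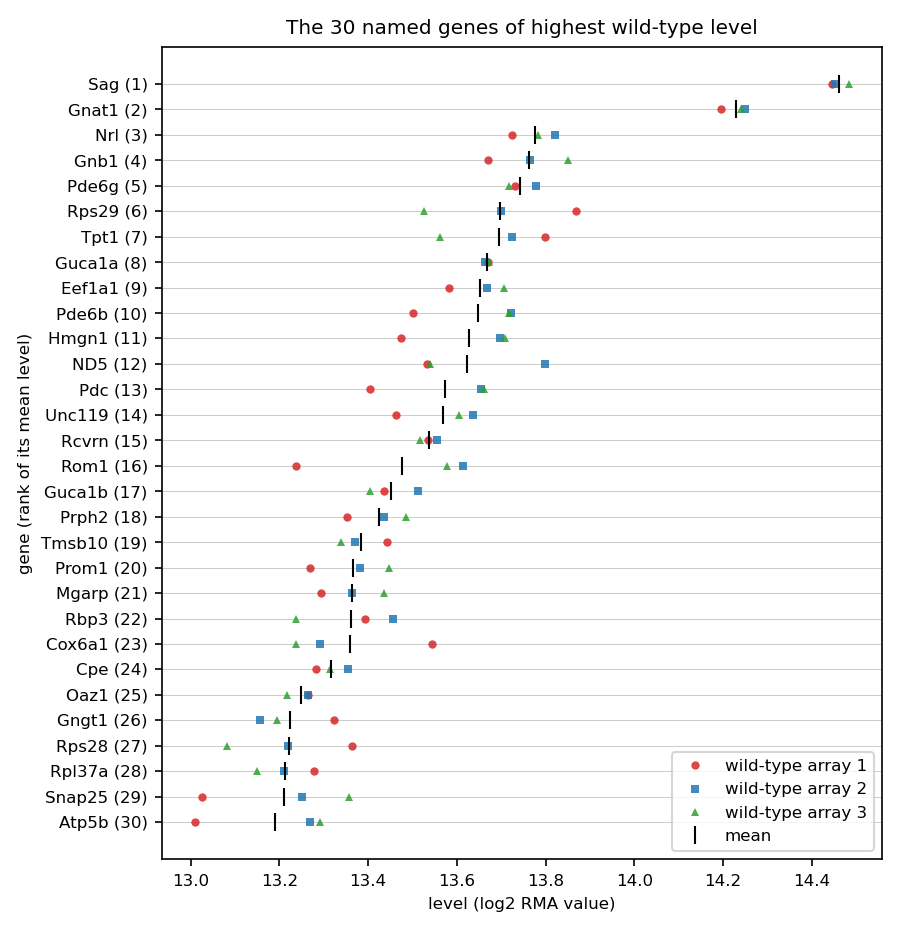
Level (x axis, log2 RMA value) on each wild-type array for the 30 genes of highest mean, ranked from the top (y axis, rank in brackets), with the mean as a black bar. Sag at 14.46 and Gnat1 at 14.23 stand clear. From Nrl at 13.78 down to Atp5b at 13.19 the arrays of neighbouring genes overlap, except those of Cpe and Oaz1.

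Genes that build the rod outer segment and its cilium came next among photoreceptor lists, with a median of 12.34 over 18 measured genes of 22 and 8 in the top 100. Unc119, a carrier of lipid-modified transducin, read 13.46, 13.64 and 13.60 (rank 14). Rom1 read 13.24, 13.61 and 13.58 (rank 16) and its partner Prph2, with which it shapes the disc rim, read 13.35, 13.43 and 13.49 (rank 18). Prom1, a membrane protein of the disc edge, had a mean of 13.37 ± 0.09 (SD, n = 3, rank 20). Rbp3, the retinoid carrier of the space around the outer segments, had 13.36 ± 0.11 (SD, n = 3, rank 22), and Aipl1, a chaperone of the phosphodiesterase, had 13.16 ± 0.13 (SD, n = 3, rank 34). At the low end of the list were Impg1 of the interphotoreceptor matrix at 9.42, Fscn2 at 9.24 and Nxnl1 at 8.91 (rank 4485).

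Transcription factors are often dim, yet those of photoreceptors were not. Nrl, the leucine zipper factor that sets rod identity, read 13.72, 13.82 and 13.78 and ranked 3. Neurod1 read 12.58, 12.73 and 12.79 (rank 80), and Crx read 12.67, 12.70 and 12.59 (rank 91). Otx2, which acts upstream of Crx, had a mean of 11.67 ± 0.08 (SD, n = 3, rank 360). All 11 measured factors of 12 lay above the median gene, and the lowest was Prdm1 at 8.46. Array 1 was in no case the highest of the 3 for this list.

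The ribbon synapse, by which photoreceptors signal without pause, had a median of 10.74 over its 14 genes and none in the top 100. The brightest was Cplx4, a complexin of ribbon synapses, at 11.84, 12.06 and 12.22 (rank 223). Ctbp2, whose ribeye form makes up the ribbon, read 11.58, 11.85 and 11.59 (rank 362). Cabp4 and Cacna1f, which tune and form the presynaptic calcium channel, had means of 10.89 and 10.60, and the vesicular glutamate transporter Slc17a7 had 9.12.

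Cone genes were spread over a wide span of levels, with a median of 9.52 over 14 measured genes of 15 and none in the top 100. Opn1sw, the short-wave cone opsin, read 12.27, 12.22 and 12.52 (rank 151), and Opn1mw, the middle-wave opsin, read 10.01, 10.28 and 10.21 (rank 1696). Pde6h, the inhibitory subunit of the cone phosphodiesterase, read 11.94, 11.69 and 11.55 (rank 340), and Gnat2, cone transducin alpha, read 11.19, 11.21 and 11.15 (rank 644). Arr3, cone arrestin, read 10.45, 11.13 and 10.97. The low end held the nuclear receptors Rxrg at 6.34 and Thrb at 5.93 and the cone gamma subunit Gngt2 at 5.18, all within the 3.05 to 7.29 spanned by the genes from other organs.

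Inner retinal neurons were represented at middle to high levels. Bipolar genes had a median of 9.73 (17 of 19 measured), led by Pcp2, a G protein regulator of rod and ON bipolar cells, at 12.12, 12.23 and 12.40 (rank 168). Prkca, the protein kinase used to stain rod bipolar cells, read 11.75, 11.81 and 11.71 (rank 326), while Trpm1, the ON bipolar transduction channel, had a mean of 6.36 and Grik1, a glutamate receptor of OFF bipolar cells, 4.72. Amacrine genes had a median of 8.78 over 17, led by calretinin, Calb2, at 11.96 and the GABA-synthesising enzyme Gad1 at 11.72. Markers of rarer amacrine cells were low, with Th of dopaminergic cells at 6.30 and Chat of cholinergic cells at 5.41.

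Horizontal cells had a median of 7.43 over 8 genes. The factors Lhx1 at 7.10 and Onecut1 at 5.19 lay far below Septin4 at 10.90, the brightest member, and Calb1 at 10.22. Amacrine cells also express Calb1. Ganglion cell genes had a median of 9.33 over 16, led by the light neurofilament Nefl at 12.00, 11.89 and 11.76 (rank 274). The ganglion cell factor Pou4f1 had a mean of 7.80, and melanopsin, Opn4, of the few intrinsically photosensitive cells, 6.29. Of the 16 ganglion genes, 13 had their highest value on array 1, against 9381 of 18193 for all genes, and the list lay 0.18 above the group mean there (median deviation).

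Müller glia were the brightest of the lists for retinal cells other than photoreceptors, with a median of 10.42 over 20 genes. After Glul came carbonic anhydrase 2, Car2, at 12.46, 12.67 and 12.85 (rank 89), then clusterin, Clu, at 12.37 ± 0.05 (SD, n = 3), and the retinaldehyde carrier Rlbp1 at 12.06 ± 0.09 (SD, n = 3). Apoe had 11.74 ± 0.27 (SD, n = 3). The glutamate transporter Slc1a3 read 9.68, 9.19 and 8.64 and was the only member with a range of at least 1, but its second probe set was level at 9.14, 9.05 and 9.20. The glial factors Sox9 at 6.97 and Hes1 at 7.43 and the protease Prss56 at 6.71 were the dimmest.

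The microglial, vascular, astrocyte and oligodendrocyte, and blood lists had medians below the median gene, at 7.16. Microglial genes had a median of 5.91, with 13 of 16 below the median gene, and the leaders were cathepsin S, Ctss, at 8.88 and the growth factor receptor Csf1r at 8.72. Vascular genes had a median of 6.77 over 21, led by Kdr, a receptor for vascular endothelial growth factor, at 9.75, 9.77 and 9.83. Myelin genes were mixed, with Mog at 2.96, below every gene from other organs, and Mag at 5.08 among them, but Mbp at 7.92 and Cnp at 8.78 above them. Astrocyte Gfap had a mean of 6.58 (SD 0.24, n = 3), just above the guide level of 6.26. Blood genes had a median of 4.17 (10 of 13 measured), and cornea, iris and ciliary body genes 4.48 (14 of 15 measured).

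General cell machinery filled much of the rest of the top 100. Cytosolic ribosomal protein genes held 18 places, with 44 of 78 entries measured and a median of 12.36, and the brightest were Rps29 at 13.87, 13.70 and 13.53 (rank 6) and Rps28 at 13.36, 13.22 and 13.08 (rank 27). Many ribosomal proteins have near-identical pseudogenes, so single levels are uncertain. Glycolysis held 7 places with a median of 11.99 over 21 genes, including aldolase A, Aldoa, at 13.15, Pkm at 12.90 and lactate dehydrogenase A, Ldha, at 12.72. Oxidative phosphorylation held 4, with a median of 11.45 over 62 genes and Cox6a1 at 13.36 as its brightest. The heat shock chaperones Hsp90aa1 and Hspa8 had means of 13.05 and 13.00. The list named translation factors held 3 places, among them Eef1a1 at 13.58, 13.67 and 13.71. That list also counts Tpt1, a tumour protein gene, at 13.80, 13.72 and 13.56.

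Of the top 100, 38 were in none of the lists, and some of these, singled out after their values were seen, are known from photoreceptors or retinal disease. Tlcd3b, a ceramide synthesis gene, read 13.00, 13.18 and 13.17 (rank 39), Reep6, an endoplasmic reticulum protein of rods, read 12.98, 13.05 and 12.72 (rank 53), and Mpp4, a scaffold of the photoreceptor terminal, read 12.44, 12.83 and 12.96 (rank 71). The taurine transporter Slc6a6 had a mean of 12.60 (rank 99). Hif1a, the oxygen-regulated transcription factor, had 12.63 ± 0.08 (SD, n = 3, rank 95), and Gpx4, which removes lipid peroxides, had 12.75 ± 0.01 (SD, n = 3, rank 70). The chromatin protein Hmgn1 and the mitochondrial gene ND5 held ranks 11 and 12, at 13.63 and 13.62.

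The rest of the description is of transcripts that were not even among the wild-type arrays. The range is the highest minus the lowest of the 3 arrays. Over all genes its median was 0.237, and in the top 100 it was 0.181 with a largest value of 0.724, for Actb. A range of at least 1 was found for 168 of 18193 genes (0.923%), of which 25 had at least 2. Array 2 lay in between for 144 of the 168. Over all 18193 genes, array 2 was highest for 3980 and lowest for 5423. The 168 genes were highest on array 1 in 105 cases and on array 3 in 52 (9381 and 4832 of 18193 for all genes). Without array 1 only 28 genes had such a range, while without array 3 there were 42. The genes were chosen by this range, so it is given with no test.

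**Figure D3:**
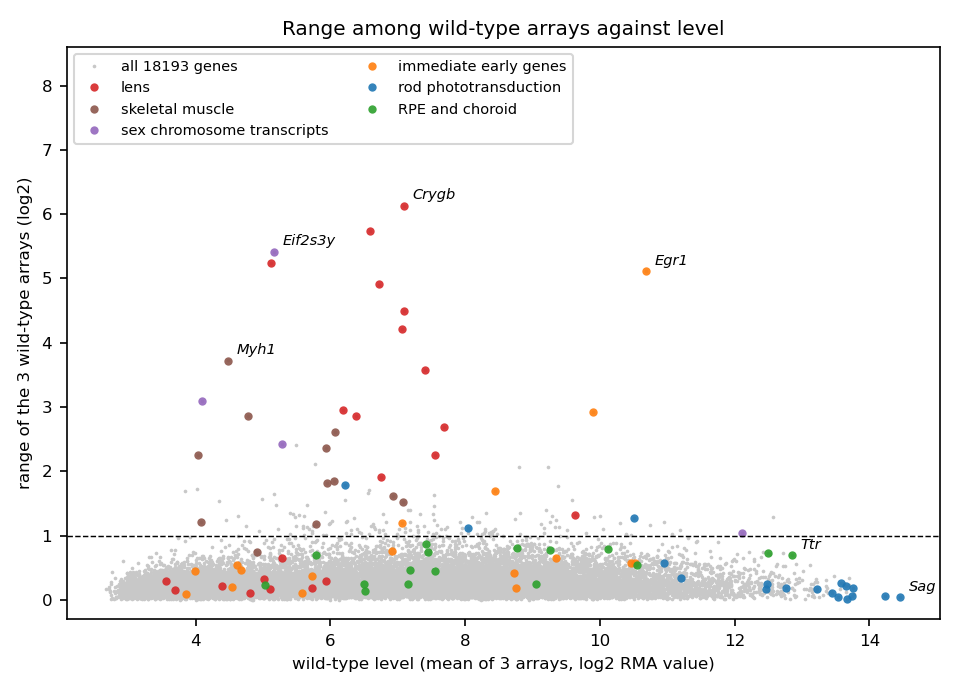
Range between the 3 wild-type arrays (y axis, log2) against mean level (x axis, log2 RMA value) for all 18193 genes in grey, with 6 gene lists coloured and the threshold of 1 dashed. Lens, skeletal muscle, sex chromosome and some immediate early genes reach 2 to 6.13, while most rod genes lie near 0 at the right.

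The same range in the 3 arrays labelled homozygous was not used in the choice. There, 324 of 18193 genes (1.78%) had a range of at least 1, with a median of 0.29 over all genes. Of the 168 genes wide in wild type, 55 (32.7%) were among them, which is 17.0% of the 324. Of the 105 genes that were highest on wild-type array 1, 92 (87.6%) were highest on homozygous array 1 of its group, against 6524 of 9381 (69.5%) for all genes that were highest on wild-type array 1. These 2 arrays also had the lowest actin 5′ to 3′ differences of the series, -1.81 and -1.74, and the part of RNA quality in this was not tested.

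Lens crystallins held the 2 widest ranges, Crygb with 6.13 and Crygd with 5.74, followed by Eif2s3y with 5.42. Of 22 measured lens genes (26 entries), 13 had a range of at least 1, and all 13 were crystallins, the structural proteins that fill lens fibre cells. Crygb read 10.80, 5.83 and 4.67, Crygd read 10.16, 5.21 and 4.42, and Cryga read 8.57, 3.47 and 3.33 on arrays 1, 2 and 3. The alpha crystallin Cryaa read 9.34, 7.09 and 5.77, and the beta crystallin Cryba1 read 9.42, 6.94 and 4.93. Array 1 was highest and array 3 lowest in all 5, and the lens list lay 1.35 above the group mean on array 1 against -0.21 and -0.73 on arrays 2 and 3 (median deviations). Lens genes that are no crystallins were flat at low levels, for example Mip, the lens fibre water channel, at 5.07, 5.14 and 4.82, and Bfsp2, a lens filament protein, at 6.09, 5.79 and 5.94.

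On the array labelled homozygous 1 some crystallins were higher than on wild-type array 1 and others lower. Cryaa read 11.72 there against 9.34, and Cryba1 read 10.98 against 9.42. Crygs had the same order, at 10.47 against 9.44, as did Crygn, at 5.10 against 3.77. Gamma crystallins A, B, D and F had the opposite one, with Crygb at 8.50 against 10.80, Crygd at 8.46 against 10.16, Crygf at 7.16 against 9.85 and Cryga at 4.21 against 8.57. On the arrays labelled heterozygous 2 and homozygous 3 the division was another one, since the beta crystallin Crybb1 read 8.32 and 8.17 there, below the 9.29 of wild-type array 1. On Cryga, wild-type array 1 stood alone, since the other 7 arrays lay between 3.33 and 4.21. In the homozygous group 14 of 22 lens genes had a range of at least 1.

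Genes for gamma crystallins A, B, D and F lie on chromosome 1, and their promoters are alike. The 90 bases before each start are shown, with the letters TATATA and TTTGTG, chosen after the sequences were seen, in capitals.
Cryga, chr1:65103364-65103453, minus strand: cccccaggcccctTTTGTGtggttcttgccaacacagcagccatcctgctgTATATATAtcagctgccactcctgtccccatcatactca
Crygb, chr1:65082291-65082380, minus strand: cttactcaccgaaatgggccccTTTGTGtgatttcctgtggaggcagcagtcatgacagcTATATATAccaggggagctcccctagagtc
Crygd, chr1:65063441-65063530, minus strand: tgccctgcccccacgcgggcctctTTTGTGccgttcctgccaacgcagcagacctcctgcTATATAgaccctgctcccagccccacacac
Crygf, chr1:65926432-65926521, plus strand: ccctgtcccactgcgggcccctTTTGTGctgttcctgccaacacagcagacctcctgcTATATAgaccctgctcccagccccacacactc
All 4 hold both motifs, TTTGTG beginning 66 to 77 bases before the start and TATATA 30 to 39. Read on both strands in the full window of 300 bases, TATATA, which reads the same on either strand, was in 5.67% of all promoters, and TTTGTG, or its complement, in 17.7%. Such near-identical genes can share probes, and the Crygf probe set is of the kind marked as able to bind several transcripts.

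Skeletal muscle genes were high on wild-type array 1 alone. All 12 measured genes of 13 were higher on it than on every one of the other 7 arrays, and 11 had a range of at least 1, against 0 of 12 in the homozygous group. Myh1, a fast myosin heavy chain, read 6.93 on array 1 and 3.21 and 3.30 on arrays 2 and 3, and the other 5 arrays lay between 2.92 and 3.21. Tnnc2, fast troponin C, read 7.78 against 5.17 and 5.25, and Mb, myoglobin, read 7.44 against 5.29 and 5.07. Ckm, muscle creatine kinase, read 7.98, 6.37 and 6.43. Of the 3 Myh1 probe sets another had the same pattern, at 6.75, 3.19 and 3.36, and the third was level, with a range of 0.28. The dimmer probe sets of Mb, at 5.60, 5.49 and 5.80, and of Ckm, at 4.90, 5.02 and 5.14, were level too. Decorin, Dcn, a matrix protein of connective tissue such as sclera, was also highest there, at 7.03, 5.39 and 4.92 (its dimmer probe set was level, at 4.05, 3.90 and 4.04), and the muscle mitochondrial creatine kinase Ckmt2 read 5.17, 3.44 and 3.48.

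**Figure D4:**
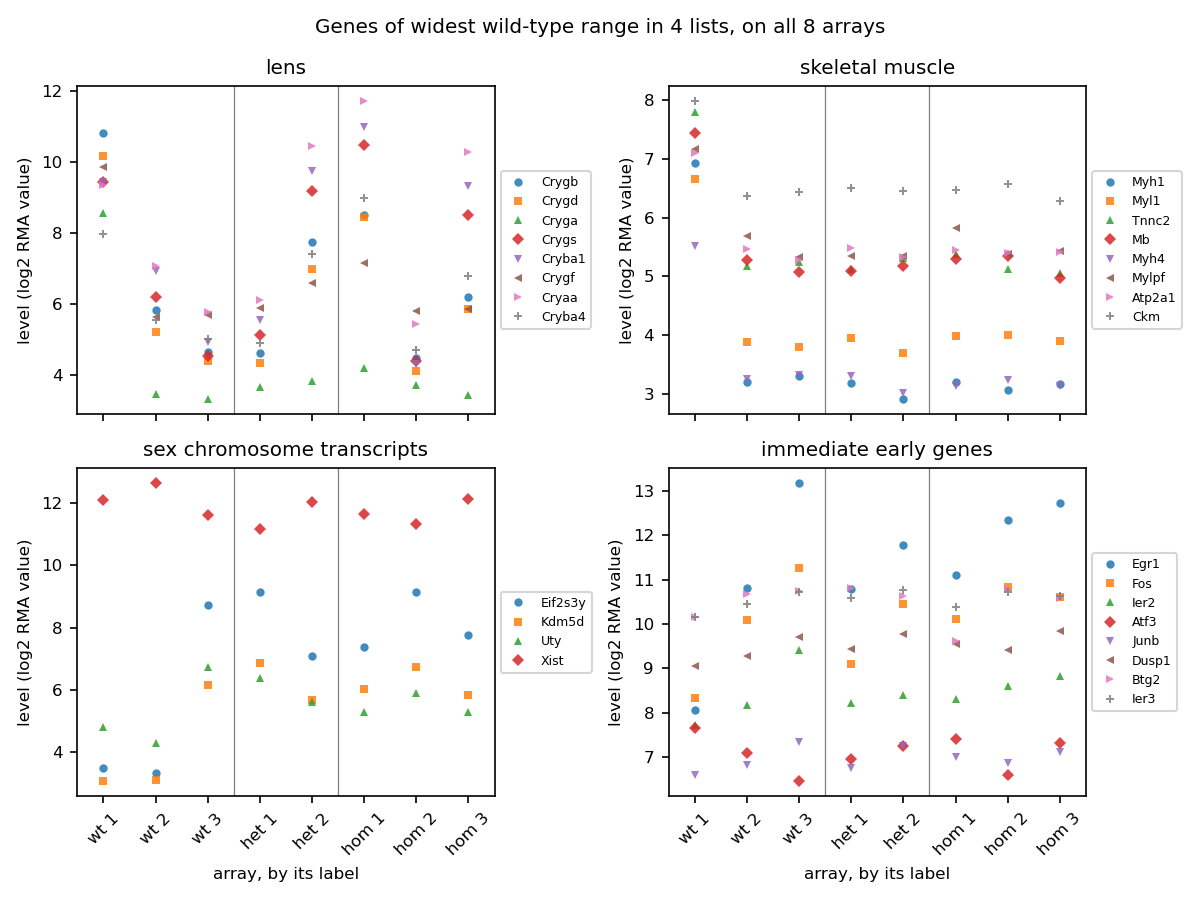
Level (y axis, log2 RMA value) on all 8 arrays (x axis, by label) of up to 8 genes of widest wild-type range in 4 lists. Muscle genes are high on wild-type array 1 only, crystallins also on several arrays labelled with a null allele, Y-linked genes are low on wild-type arrays 1 and 2 only, and Egr1 spans 8.07 to 13.18.

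The Y-linked transcripts divided the wild-type arrays the other way. Eif2s3y, a translation factor gene of the Y chromosome, read 3.46 and 3.32 on arrays 1 and 2 and 8.73 on array 3, and Kdm5d, a histone demethylase gene, read 3.05 and 3.09 against 6.14, with a smaller difference at its second probe set (3.82 and 3.63 against 4.71). Uty read 4.81, 4.30 and 6.72. Xist, the RNA of the inactive X chromosome, was bright on all 3, at 12.09, 12.65 and 11.61. Array 3 therefore held both Y-linked RNA and Xist, as did the other 5 arrays, where Eif2s3y lay between 7.07 and 9.14 and Xist between 11.17 and 12.15. The sex of the mice is not given in the sources used here.

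Immediate early genes, which cells switch on within minutes of a stimulus, included the widest range among bright transcripts. Egr1, a zinc finger factor, read 8.07, 10.82 and 13.18, and Fos, a subunit of the AP-1 factor, read 8.34, 10.09 and 11.27. Ier2 read 7.73, 8.19 and 9.42, and Junb read 6.59, 6.83 and 7.35. These 4 were lowest on array 1 and highest on array 3. Atf3, a stress-induced factor, went the other way at 7.65, 7.09 and 6.46, Jun was level at 8.76, 8.85 and 8.67, and Fosb, Arc and Egr2 stayed below 5 on every array. On the other 5 arrays Egr1 lay between 10.78 and 12.73, so wild-type arrays 1 and 3 were its lowest and highest readings of the series.

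Stress and RPE genes had smaller shifts. The metallothionein gene Mt2 read 10.29, 9.71 and 8.74, and Mt1 read 10.95, 10.52 and 9.94, both highest on array 1. Edn2, an endothelin made by stressed photoreceptors, read 4.38, 5.06 and 6.03, all low beside the 8.68 of the array labelled homozygous 3. RPE and choroid genes were lower on array 3, where 13 of 16 had their lowest value (8116 of 18193 for all genes) and the list lay 0.37 below the group mean (a median deviation of -0.37). Ttr, transthyretin, read 13.11, 13.03 and 12.42 (rank 61). Ptgds, a prostaglandin synthase, read 12.77, 12.67 and 12.04, Rpe65, the isomerase of the visual cycle, read 10.20, 10.48 and 9.69, and Rgr, an RPE and Müller opsin, read 10.74, 10.71 and 10.20. The pigment genes Dct and Tyrp1 were also lower on array 3, at 8.23 against 9.03 and 9.03, and at 6.86 against 7.70 and 7.72. Rpe65, which is known mainly from RPE, was thus well above the guide level of 6.26 on every array of tissue labelled as free of RPE.

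**Figure D5:**
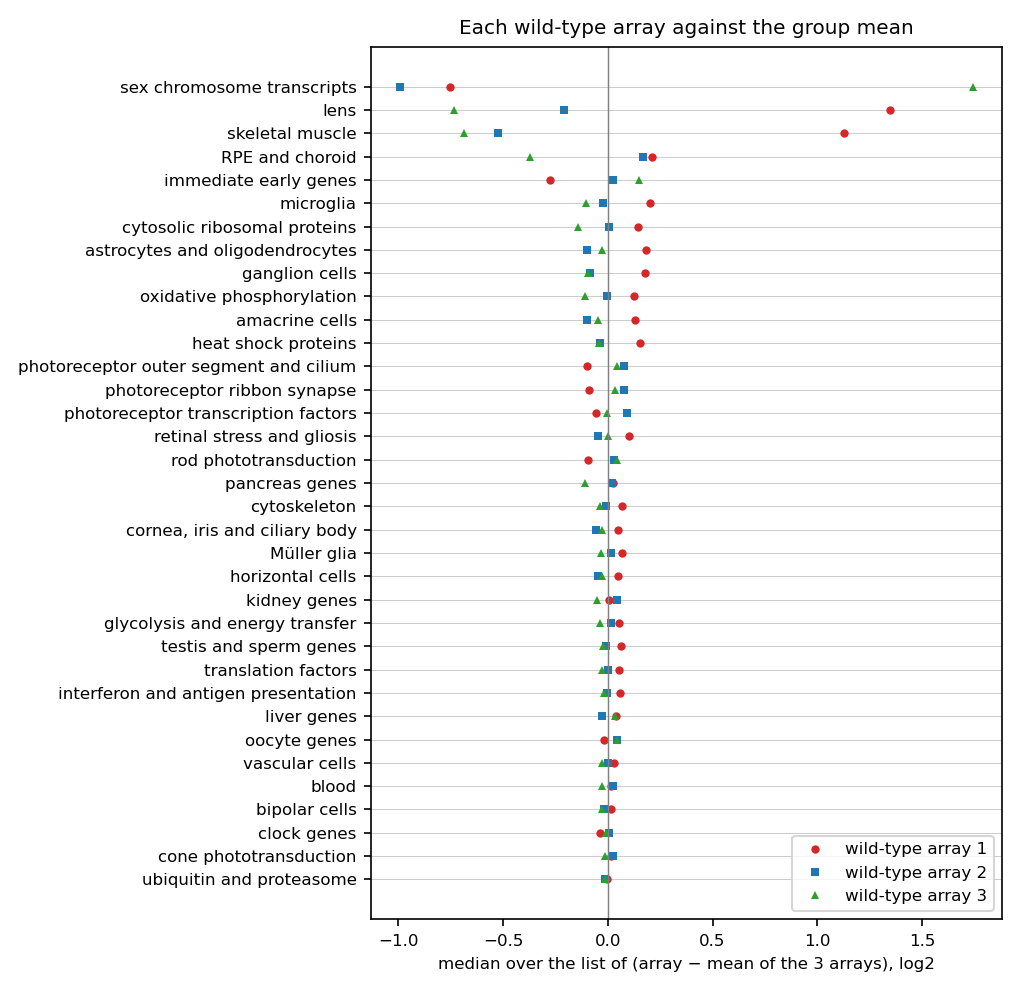
Median over each gene list (y axis) of the array's value minus the mean of the 3 wild-type arrays (x axis, log2), 1 symbol per array. Sex chromosome, lens and muscle lists spread by more than 1, the RPE and choroid list has array 3 at -0.37, and the rod list lies within 0.10 of 0.

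Smaller shifts ran through whole lists. Of all 18193 genes, 9381 were highest on array 1 and 8116 lowest on array 3. Of 44 ribosomal protein genes, 36 were highest on array 1 and 39 lowest on array 3, with median deviations of 0.14, 0.01 and -0.14, and 31 were higher on array 1 than on all other 7 arrays. Of 62 oxidative phosphorylation genes, 42 were highest on array 1. The rod and outer segment lists were slightly the reverse: array 1 had the lowest value in 12 of 18 genes of each, against 4654 of 18193 for all genes, with a median deviation of -0.10 for both. The cone list was not, with 5 of 14 genes highest and 5 lowest on array 1. Clock genes were level, with a median range of 0.127 over 16 genes, and Arntl, the core activator also called Bmal1, read 9.86, 9.90 and 9.94.

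Of the 168 genes of wide range 123 were in none of the lists and 45 in at least 1. Examples from both follow, of which Kcnv2, Srsf5, Gja1 and Mt3 were chosen after their values were seen. Cnnm4, a metal transporter gene mutated in a cone-rod dystrophy, read 7.43, 9.47 and 9.49, and on the arrays labelled homozygous it read 8.22, 9.60 and 8.62. Map1b, a protein of neuronal microtubules, read 8.49, 9.36 and 10.27, and 7.96, 9.72 and 9.46 in that group. These probe sets had their lowest value on array 1 in either group. The second Cnnm4 probe set had the opposite direction, at 8.18, 7.62 and 7.17, and the second Map1b probe set was level, at 7.86, 7.89 and 7.67, while the third had the pattern of the brightest, at 5.75, 7.18 and 8.97. Kcnv2, a potassium channel subunit of photoreceptors, read 8.55, 9.10 and 9.94, and the splicing factor Srsf5 read 11.85, 12.71 and 13.14. Ctse, cathepsin E, read 4.32, 5.40 and 6.74, but its second probe set, equally bright on average, read 5.35, 5.54 and 5.56, so its wide range rests on 1 probe set. The gap junction gene Gja1 read 8.21, 7.64 and 6.75, and Mt3, a metallothionein of neural tissue, read 8.36, 7.53 and 6.73. S100b, a calcium-binding protein of astrocytes, read 7.98, 7.39 and 6.64. These 3 were highest on array 1, as were 13 of the 20 Müller genes (9381 of 18193 for all genes). Car2 and Apoe were among the 6 Müller genes that were lowest there (4654 of 18193 for all genes).

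The wild-type arrays were last compared with the other 5 arrays, to ask where this retina differs from the rest of the series. The 2 groups also differ in Y-linked RNA: Eif2s3y read 3.46 and 3.32 on wild-type arrays 1 and 2, against 7.07 to 9.14 on the other 5 arrays. The model had no term for this, so its part in a difference cannot be told apart from that of genotype. By limma's moderated test with Benjamini-Hochberg adjustment over 45037 probe sets, 0 passed an adjusted p of 0.05 (0.0%), and the smallest adjusted p was 1. Without adjustment 605 passed 0.05, of which 297 were higher in wild type and 308 lower. An ordinary test without moderation gave 962 and also 0 after adjustment. Nxnl1 itself was higher in wild type by 1.63 (SE 0.64, unadjusted limma p 0.032) and did not pass the adjusted threshold. On the arrays labelled heterozygous 1 and homozygous 2 it read 8.65 and 8.76, near the wild-type values. A count of 0 therefore does not show that no gene differs. Of the top 100 genes, 49 were higher and 51 lower in wild type and 98 differed by less than 0.2. The exceptions were Ttr, higher by 0.46 (SE 0.23, unadjusted limma p 0.074), and the RNA-binding gene Hnrnpab, higher by 0.487. Hnrnpab read 12.36, 12.62 and 12.89 in wild type and 9.98 on the array labelled homozygous 1, against 12.26 to 13.06 on the remaining arrays. Sag differed by -0.0252 (SE 0.07), Gnat1 by 0.0048 (SE 0.07) and Glul by -0.0145 (SE 0.09).

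Without wild-type array 3, limma called 4 probe sets, all lower in wild type (smallest adjusted p 0.0008622). One was a probe set of Uty, with a log2 difference of -2.76 (SE 0.25, adjusted p 0.025), and the other 3 have no gene name here. With all arrays Kdm5d differed by -2.13 (SE 0.66) and Eif2s3y by -2.93 (SE 1.15), each with an adjusted p of 1.

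Some lists leaned one way, although none of their genes passed the adjusted threshold. The difference in Y-linked RNA between the groups applies here too, and its part was not tested. Over all 18193 genes 8272 were higher and 9921 lower in wild type, with a median difference of -0.01. All 14 measured interferon and antigen presentation genes were lower in wild type, with a median of -0.27. Among them were the major histocompatibility genes H2-K1 (-0.31, SE 0.14) and H2-D1 (-0.46, SE 0.22) and the immunoproteasome subunit Psmb9 (-0.33, SE 0.10, unadjusted limma p 0.0077). Other lists also leaned to lower values, with 17 of 21 vascular genes (median -0.10), 12 of 16 microglial genes (median -0.14) and 14 of 17 amacrine genes (median -0.05) lower. Stress and gliosis genes were lower in 12 of 14, with a median of -0.15, among them Edn2 at -1.80 (SE 0.86). RPE and choroid genes were higher in 12 of 16, with a median of 0.24, and ribosomal protein genes in 41 of 44, with a median of 0.08. All 12 skeletal muscle genes were higher, with a median of 0.56, which rests on array 1. Rod genes were higher in 9 and lower in 9 of 18, with a median of -0.0023.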

How the data were processed

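Total RNA from 8 mouse retina samples was labelled and hybridised to Affymetrix expression arrays, 1 array per sample. The deposited values are log2 expression values per probe set, which the authors obtained by RMA, per the submitters' processing notes (no version stated there). RMA's quantile step makes array totals alike, so levels are relative to the bulk of the transcripts. Of 45101 probe sets, 64 controls were left out; of the 45037 used, 34945 had 1 gene symbol in the platform annotation, 932 several and 9160 none, and 34741 symbols were updated through gene identifiers. Of the 100 brightest probe sets, 60 had 1 symbol, 23 several and 17 none, and only those with 1 were ranked.

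Each of 18193 genes was represented by its probe set of highest wild-type mean. Named genes were Sag, Gnat1, Glul and Nxnl1, the 30 of highest mean, the 30 of widest range, and from each of 35 lists (558 of 646 entries measured) up to 6 of highest level, 3 of lowest and 4 of widest range; uncharacterised names were skipped, and other genes named were picked after their values were seen. The arrays, markers and lists were chosen with earlier results of these data known.

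Wild type was compared with the other 5 arrays by limma 3.58.1 in R 4.3.3 (lmFit, eBayes, two-sided, Benjamini-Hochberg, threshold 0.05, 6 residual degrees of freedom), tested on simulated data. Promoters came from RefSeq on GRCm38.p6. The number of arrays limits the precision. Replicate numbers were not used to pair the arrays. Alternatives changed the probe set rule, scaling, filters, threshold, variance model and arrays used.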

Additional observations from a re-analysis of the deposited data

How the results depend on the processing

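The count of photoreceptor genes in the top 100 was 22 in every alternative run except the one without probe sets marked as binding several transcripts, where it was 26. Sag and Gnat1 held ranks 1 and 2 throughout. The make-up of the top 100 moved more: it shared 58 genes with the main list when probe sets of a gene were averaged, 40 without the marked probe sets, 99 or 100 under the other whole-group settings, and 95 to 98 when 1 wild-type array was left out.

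The 168 genes with a range of at least 1 became 163 to 196 under other scalings and probe set rules. The count was 80 over genes above the median level only, and 43 at a range of 1.5. Leaving out 1 wild-type array gave from 28 (without array 1) to 159 (without array 2), which in part reflects fewer arrays. Of the 191 found on probe set means, 95 were shared with the 168.

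Against the other 5 arrays, 0 probe sets were called in every alternative except without wild-type array 3, where 4 were. Leaving out 1 array thus gave 0 to 4. With the replicate number as a block 0 were called, at 511 unadjusted. The deviations of wild-type and homozygous arrays correlated at 0.62, 0.23 and -0.03 for numbers 1, 2 and 3, so the numbers were not used as pairs.

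The 48 genes of other organs, with levels of 3.05 to 7.29, are a rough guide to the bottom of the scale. They were picked by organ, and whether each is inactive in retina was not tested. No detection calls were used. The spread rests on 3 arrays.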
